A study of Homo sapiens with 24 samples.

Results

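The response of unedited HEK293T cells to low oxygen was measured by RNA sequencing in 8 of the 24 libraries of a series on the microRNA gene MIR210 and its host transcript MIR210HG. HEK293T is a human embryonic kidney line that carries the SV40 large T antigen and has an epithelial form. The 4 Hypoxia WT libraries came from unedited cells kept for 24 h in 1% O2, and the 4 Normoxia WT libraries from unedited cells kept for 24 h in 21% O2. They were chosen by their labels, as the wild-type columns of the hypoxia and normoxia count tables, and the tables were joined on the gene identifier. The other 16 libraries came from the lines labelled MIR210-KO and 210HG-KO, with 4 libraries at each oxygen level, and the labels do not say whether an edited line is 1 clone or a pool. All cells grew in the same high-glucose medium with fetal bovine serum. The labels do not say whether the 4 libraries of a group are separate cultures, so p-values measure only the spread between these libraries. The 1% O2 and 21% O2 libraries come from separate count tables, and an effect of oxygen and a difference between the tables cannot be told apart.

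Cells sense oxygen through prolyl hydroxylases that mark the alpha subunits of hypoxia-inducible factor (HIF) for destruction by the VHL ubiquitin ligase. When oxygen falls the alpha subunits escape, pair with ARNT and bind short ACGTG or GCGTG stretches near genes for glucose uptake, glycolysis, vessel growth and the removal of mitochondria. Oxygen is also the final electron acceptor of disulfide formation in the endoplasmic reticulum (ER), where unfolded proteins activate the sensors EIF2AK3 (PERK), ERN1 (IRE1) and ATF6.

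The response reached most of the genes measured, but much of it was small. Of 58735 genes, 19952 had enough counts to be tested, and a gene was called when the adjusted p of edgeR's quasi-likelihood test (Benjamini-Hochberg over all genes tested) was below 0.05. By that rule 12022 genes, 60.3%, were called between Hypoxia WT and Normoxia WT, of which 5899 (29.6% of genes tested) were higher and 6123 (30.7%) lower in 1% O2. These shares are the background beside which each count of list members below is to be read. A change of at least 2-fold was called in 1659 genes that rose (8.31%) and in 1078 that fell (5.4%), and 48.4% of all calls were below 1.5-fold. Among the 11221 protein-coding genes with a mean of at least 5 CPM (counts scaled to the library size) in either group, 51 rose at least 4-fold and 5 fell at least 4-fold. In 25.5% of genes tested all 4 libraries at 1% O2 lay above all 4 at 21% O2, and in 27.6% all 4 lay below. The median log2 fold change was 0.00 over all genes tested and -0.03 over the 14537 protein-coding ones.

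The Hypoxia WT libraries did not form a tight group. Libraries 1 and 3 gave 1.62% and 1.55% of their counts to long noncoding RNA (lncRNA) genes, against 2.49% and 2.25% in libraries 2 and 4 and 1.55% to 1.62% in the Normoxia WT libraries. For a balance of long and short genes, each gene's log2 level was first centred on its mean over all 24 libraries. The mean of genes of at most 1500 bases was then taken from that of genes of at least 8000 bases. This balance was 0.40 and 0.29 in libraries 2 and 4, -0.01 and -0.11 in libraries 1 and 3, and -0.23 to -0.14 at 21% O2. Ribosomal protein genes took 7.83% and 8.21% of the counts in libraries 1 and 3, 6.36% and 6.42% in libraries 2 and 4, and 7.44% to 7.76% at 21% O2. Protein-coding genes of at most 1500 bases had a median log2 fold change of -0.22 and those of at least 8000 bases one of 0.05. From libraries 2 and 4 alone these medians were -0.36 and 0.12, and from libraries 1 and 3 alone -0.12 and -0.001. The part of this length balance in any gene's change was not tested, so list medians printed here that differed by over 1.5 times between libraries 1 and 3 alone and libraries 2 and 4 alone are given from both pairs, as are those of some other lists. In the edited lines at 1% O2 the length balance was 0.03 to 0.29 in MIR210-KO and 0.26 to 0.32 in 210HG-KO. Their lncRNA shares were 1.88% to 2.31% and 2.16% to 2.22%. Apart from MIR210-KO library 1 (0.03 and 1.88%), these values lay nearer Hypoxia WT libraries 2 and 4 than 1 and 3. Total counts were 32500812 to 37858947 in Hypoxia WT and 26330323 to 31547054 in Normoxia WT.

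Genes that read oxygen mostly changed less than 2-fold. Of 15 HIF regulators tested, 9 were called higher and 3 lower, with a median log2 fold change of 0.16. EGLN1, the main prolyl hydroxylase that marks HIF for destruction, had 313, 325, 312 and 321 CPM in Hypoxia WT, against 159, 163, 157 and 170 CPM in Normoxia WT. The groups were far apart and EGLN1 rose by 0.97 ± 0.047 (log2 ± SE, adjusted p = 1.64e-17). The related EGLN3 rose by 0.58, while EGLN2 fell by 0.64 and HIF1AN, the asparagine hydroxylase that blocks HIF's contact with its coactivators, fell by 0.64. HIF1A itself had 76.4 to 95.6 CPM in 1% O2 and 76.5 to 81.1 CPM in 21% O2, and these ranges overlapped. Its call, at 0.16 ± 0.060 (adjusted p = 0.0192), was lost without Normoxia WT library 1 (0.15), without Hypoxia WT libraries 2 and 4 (0.12) and with the length balance as a covariate (0.02). EPAS1 (HIF-2 alpha), with a log2 fold change of -0.07, and ARNT2, at 0.00, were not called. CITED2, a HIF target that competes with HIF for the coactivator p300, rose by 0.91. HIF1A-AS2, a transcript antisense to HIF1A, was called at 2.59. Because the strand setting of the read counting is not given in the sources used here, its reads and those of HIF1A cannot be told apart.

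Known HIF targets inside the cell rose together, and these were among the largest changes in the transcriptome. Of 37 tested, 32 were called higher, 23 of them at least 2-fold, and 2 lower, with a median log2 fold change of 1.20, beside 0.00 for all genes tested. That median was 1.29 in libraries 2 and 4 and 1.16 in libraries 1 and 3. BHLHE40, a repressor of transcription with roles in the circadian clock, had 383, 425, 421 and 405 CPM in Hypoxia WT, against 53.5, 61.1, 46.1 and 53.5 CPM in Normoxia WT. Every library at 1% O2 lay far above every library at 21% O2, and the log2 fold change was 2.93 ± 0.070 (adjusted p = 3.93e-25). HILPDA, a lipid droplet protein that restrains lipolysis, had 224, 258, 248 and 242 CPM in Hypoxia WT, against 29.4, 33.5, 26.8 and 30.9 CPM in Normoxia WT, with no overlap and a log2 fold change of 3.01 ± 0.065. ANKRD37, which overlaps UFSP2 on the other strand, was at 12.4 to 13.6 CPM in Hypoxia WT and 1.26 to 1.57 CPM in Normoxia WT. NDRG1, a stress-induced growth regulator, rose by 2.33, DDIT4 (REDD1), an inhibitor of mTORC1 signalling, by 1.97, and INSIG2, which retains the SREBP machinery in the ER, by 1.67. The exceptions were CA12, a carbonic anhydrase that fell by 0.48, and ISM2, which fell by 0.86, while ANG, RAB20 and NARF were not called. CA9, the carbonic anhydrase often used as a hypoxia marker, was too low to be tested, with 41 counts in all 4 libraries at 1% O2 and 0 at 21% O2.

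The HIF core letters lay in most promoters, and in a larger share of those of HIF-related genes that rose. ACGTG and GCGTG were searched on both strands, counting overlapping matches separately, in the RefSeq window (GRCh38.p14) from 250 bases before to 50 after the start of 11746 of 14519 protein-coding genes. A match lay in 62.0% of all these windows, in 62.0% of those of genes called higher and in 65.1% of those of genes called lower. Among genes of the HIF-related lists called higher at least 2-fold, 35 of 42 windows (83.3%) held a match, beside 71 of 108 (65.7%) for the other members of those lists. These 42 did not include HILPDA, SLC2A3, STC1, NDRG1, BNIP3L or VEGFA, which also rose at least 2-fold. The 83.3% thus covers only part of the HIF-related genes that rose. Among genes of the ER lists described further on, 30 of 32 called higher (93.8%) held one, beside 9 of 14 (64.3%) of the other members. Of the 36 matched genes that rose at least 4-fold at 5 CPM or more, 17 (47.2%) held one. A match is a description of the letters and not evidence of binding. The 250 bases upstream of 4 genes of those lists with several matches are printed because they show how closely such letters can stand together, with every match in capitals (CACGT and CACGC are the reverse-strand forms). BNIP3, on chr10:131981924-131982173 (minus strand), had 6 matches. ALDOC, on chr17:28576896-28577145 (minus strand), had 5, and BHLHE40, on chr3:4979187-4979436 (plus strand), and LOX, on chr5:122078260-122078509 (minus strand), had 4 each.

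BNIP3: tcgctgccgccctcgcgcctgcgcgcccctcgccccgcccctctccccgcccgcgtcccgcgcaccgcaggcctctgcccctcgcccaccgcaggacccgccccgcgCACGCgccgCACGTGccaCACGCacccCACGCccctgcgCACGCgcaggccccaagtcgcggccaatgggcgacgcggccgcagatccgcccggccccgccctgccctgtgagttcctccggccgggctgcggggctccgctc

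ALDOC: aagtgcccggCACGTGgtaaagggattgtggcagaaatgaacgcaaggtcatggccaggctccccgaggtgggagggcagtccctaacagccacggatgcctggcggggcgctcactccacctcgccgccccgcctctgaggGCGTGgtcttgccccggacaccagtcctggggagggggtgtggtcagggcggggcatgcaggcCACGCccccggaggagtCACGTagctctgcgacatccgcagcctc

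BHLHE40: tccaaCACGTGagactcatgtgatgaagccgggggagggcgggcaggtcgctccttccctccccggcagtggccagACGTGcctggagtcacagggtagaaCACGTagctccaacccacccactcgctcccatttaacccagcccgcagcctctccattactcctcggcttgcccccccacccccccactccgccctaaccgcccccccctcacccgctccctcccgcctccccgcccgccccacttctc

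LOX: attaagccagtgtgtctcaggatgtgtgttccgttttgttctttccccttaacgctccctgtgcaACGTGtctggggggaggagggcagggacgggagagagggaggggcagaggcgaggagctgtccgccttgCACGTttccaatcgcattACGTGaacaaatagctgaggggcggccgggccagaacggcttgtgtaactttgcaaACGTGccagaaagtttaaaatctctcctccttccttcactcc

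Glucose handling changed by isozyme rather than as a block. Of 29 genes of glucose uptake and glycolysis, 15 rose, 9 of them at least 2-fold, and 8 fell, with a median log2 fold change of 0.25 (0.13 in libraries 2 and 4, 0.40 in libraries 1 and 3). The transporter SLC2A3 (GLUT3) had 90.2, 99.1, 95.7 and 93.0 CPM in Hypoxia WT, against 12.4, 14.8, 7.85 and 12.8 CPM in Normoxia WT. No libraries overlapped, and SLC2A3 rose by 2.98 ± 0.107 (adjusted p = 1.2e-20), while SLC2A1 (GLUT1) rose by 1.61. Hexokinase 2 (HK2), which traps glucose in the cell, had 591, 713, 643 and 734 CPM in 1% O2 and 171, 179, 158 and 183 CPM in 21% O2, a rise of 1.95 ± 0.067. HK1, at 180 to 208 CPM in 1% O2 and 175 to 185 CPM in 21% O2, was not called (0.07), but was called higher without Hypoxia WT libraries 2 and 4 (0.17) and with upper quartile scaling (0.16). Per length (RPKM, CPM divided by the table's gene length in kilobases), HK2 stood at 111 ± 10.8 in 1% O2 and 28.5 ± 1.83 in 21% O2 (SD, n = 4 each). HK1 stood at 30.0 ± 2.08 RPKM in 1% O2 and 28.6 ± 0.636 in 21% O2, so HK2 was above HK1 only in 1% O2, as their levels at 21% O2 lay within the spread. The lactate dehydrogenase subunits moved in opposite directions, with LDHA, at 370 RPKM in 1% O2 and 207 in 21% O2, called higher and LDHB, at 10.5 RPKM in 1% O2 and 24.8 in 21% O2, called lower. Phosphofructokinase 1 subunits PFKL and PFKM fell by 0.53 and 0.58, PKM was not called (-0.05) except without Hypoxia WT libraries 1 and 3 (-0.14), and the regulatory kinases PFKFB3 and PFKFB4 rose by 0.86 and 1.72. Of 15 families of related genes compared per length, 3 had a different order of levels in 1% O2 than in 21% O2, namely the hexokinases, the PFKFB kinases and the pyruvate dehydrogenase kinases. In the first family, as in PFKFB4 (3.66 ± 0.399) and PFKFB2 (3.68 ± 0.197), the levels at 21% O2 lay within the spread, so that only the order in 1% O2 is clear.

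**Figure D1:**
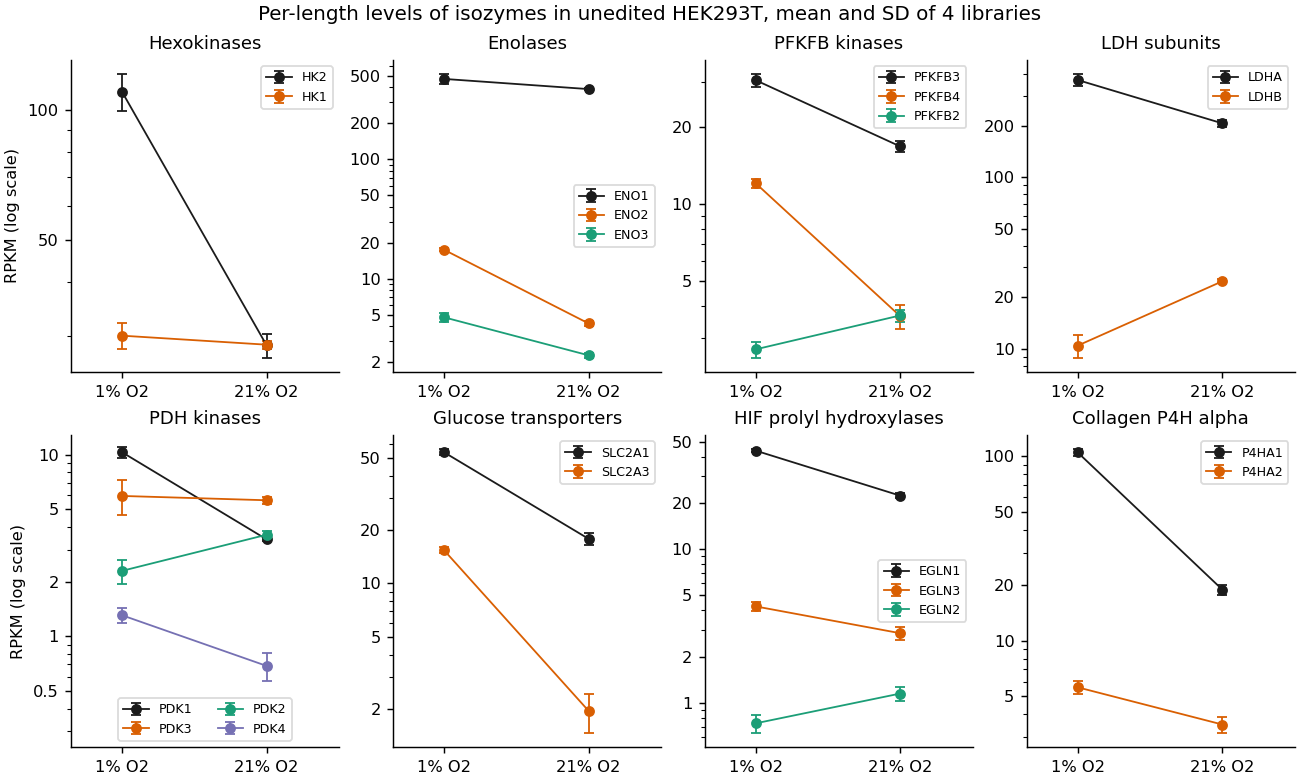
Levels per length (RPKM, log axis) of related enzymes in Hypoxia WT (1% O2, left) and Normoxia WT (21% O2, right), as mean and SD of 4 libraries. HK2 stands at 111 RPKM in 1% O2 and 28.5 in 21% O2 while HK1 stays near 30, and LDHA and LDHB move apart.

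The kinases that keep pyruvate out of mitochondria also changed by isozyme. PDK1, a kinase that inactivates pyruvate dehydrogenase, had 150, 165, 141 and 160 CPM in Hypoxia WT, against 50.6, 52.8, 50.5 and 49.9 CPM in Normoxia WT. Its libraries did not overlap and it rose by 1.59 ± 0.059 (adjusted p = 2.78e-20). In 1% O2 PDK1 led its family at 10.3 ± 0.725 RPKM, with PDK3 at 5.94 ± 1.29 and PDK2 at 2.29. At 21% O2 PDK1 stood at 3.42 ± 0.0846 RPKM, below PDK3 (5.62 ± 0.262) and within the spread of PDK2 (3.63 ± 0.190). PDK2 fell by 0.66. PDK3 was not called (0.08), but was called higher without Hypoxia WT libraries 1 and 3 (0.33) and lower with the length balance as a covariate (-0.40). The pyruvate dehydrogenase subunits PDHA1, PDHB and DLAT fell by 0.49, 0.68 and 0.78. MXI1, an antagonist of MYC, rose by 1.61. MYC was called lower at -0.17, with overlapping libraries (253 to 306 CPM in 1% O2, 302 to 334 in 21% O2), and the call was lost in 11 alternatives. Among these were leaving out Hypoxia WT library 2 or 4 or Normoxia WT library 2 (-0.13 to -0.08), DESeq2 (-0.14) and the length covariate (-0.01).

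Secreted and vascular factors were divided. Of 23 tested, 11 (47.8%) rose, 7 of them at least 2-fold, and 4 (17.4%) fell, beside 29.6% and 30.7% of all genes tested. VEGFA, the main growth factor of blood vessels, had 340, 355, 334 and 362 CPM in Hypoxia WT, against 107, 110, 102 and 105 CPM in Normoxia WT, a rise of 1.72 ± 0.054 without overlap. VEGFB fell by 0.53, and VEGFC and PGF were not called. INHBA, which encodes the activin A subunit, rose the most of the list, by 4.46 ± 0.254, at 6.78 to 8.84 CPM in Hypoxia WT, against 0.271 to 0.408 CPM in Normoxia WT. STC1, a secreted glycoprotein first known for calcium regulation, rose by 3.33 and the vasodilator peptide ADM by 1.96. CXCR4, the receptor for CXCL12, had 86.2, 82.3, 86.9 and 72.7 CPM in 1% O2 and 10.1, 12.6, 8.35 and 10.9 CPM in 21% O2, while its low-level ligand CXCL12 was called at -1.33, a call lost without Hypoxia WT libraries 2 and 4 (-0.86) and with the length covariate (-0.97). EPO was not called at this depth.

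Outside glucose metabolism, HIF-linked genes of mitophagy, matrix and chromatin were mixed. Of 17 genes of mitophagy and autophagy 9 (52.9%) rose and 4 (23.5%) fell. Of 16 collagen and matrix hydroxylases 6 (37.5%) rose and 6 (37.5%) fell, near the 29.6% and 30.7% of all genes tested. BNIP3 and BNIP3L, outer membrane receptors that tag mitochondria for autophagy, had 282 to 319 and 160 to 166 CPM in Hypoxia WT, against 66.3 to 79.3 and 39.3 to 43.2 CPM in Normoxia WT. They rose by 2.03 ± 0.060 and 1.98 ± 0.061, and OPTN, an autophagy receptor, by 1.59, while PINK1 fell by 0.51 and ULK1, the kinase that starts autophagy, by 0.65. P4HA1, the catalytic subunit that hydroxylates collagen prolines, had 315, 339, 334 and 313 CPM in Hypoxia WT, against 57.5, 59.6, 54.3 and 63.2 CPM in Normoxia WT, a rise of 2.47 ± 0.060 with no overlap. LOX, which cross-links collagen, rose by 2.37 and PLOD2 by 1.59, but PLOD1 fell by 0.68 and PLOD3 by 1.05. Of 22 oxygen-dependent demethylases of histones and DNA, 11 rose and 5 fell. KDM3A had the largest rise, 1.70, at 196 to 216 CPM in 1% O2 and 60.1 to 70.3 CPM in 21% O2, and KDM8 had the largest fall, -1.04.

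**Figure D2:**
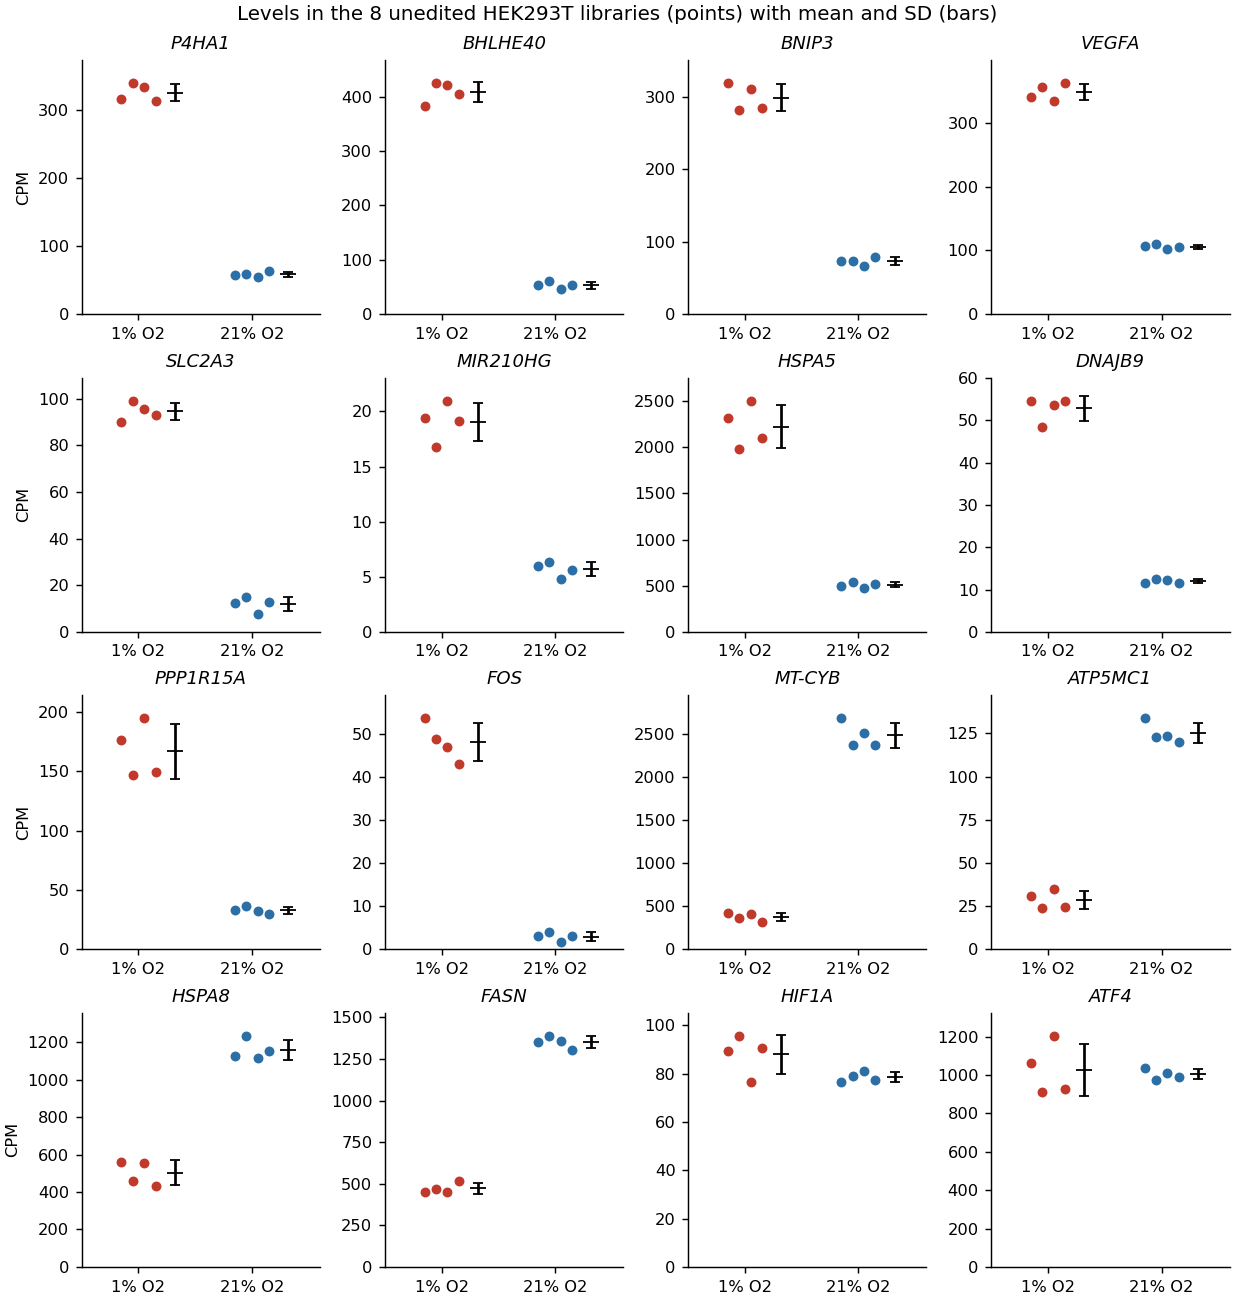
Level in CPM of 16 genes in each Hypoxia WT (1% O2, left of each panel) and Normoxia WT (21% O2, right) library, with mean and SD of 4 beside the points. P4HA1, HSPA5 and FOS are separated without overlap, MT-CYB and ATP5MC1 lie lower in 1% O2, and HIF1A and ATF4 overlap.

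Most of the genes listed for protein folding in the ER rose, among them that of the chaperone BiP. HSPA5, which encodes BiP, had 2317, 1978, 2504 and 2101 CPM in Hypoxia WT, against 496, 545, 480 and 523 CPM in Normoxia WT. All 4 libraries at 1% O2 lay far above those at 21% O2, and HSPA5 rose by 2.12 ± 0.058 (adjusted p = 1.21e-23). Of 26 ER chaperones and folding factors, 18 were called higher, 4 of them at least 2-fold, and 4 lower, with a median of 0.33 (0.29 in libraries 2 and 4, 0.42 in libraries 1 and 3). DNAJB9, a BiP cochaperone that restrains IRE1, had 54.6, 48.4, 53.7 and 54.5 CPM in Hypoxia WT, against 11.6, 12.5, 12.2 and 11.6 CPM in Normoxia WT and rose by 2.14 ± 0.083, though it overlaps THAP5 on the other strand. HSP90B1 (GRP94) rose by 1.06, ERO1B and ERO1A, the oxidases that feed disulfide formation, by 1.01 and 0.80, and CANX, a lectin chaperone, by 0.60. The response was not uniform, since CRELD2 fell by 1.07 and SDF2L1 by 0.62. CALR was called at -0.26 with overlapping libraries, and its call was lost without Hypoxia WT libraries 2 and 4 (-0.08) and with the length covariate (-0.07).

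Most of the sensors and degradation genes of the same pathway also rose. Of 27 genes, 18 rose, 5 of them at least 2-fold, and 3 fell, with a median of 0.42. HERPUD1, a scaffold of ER-associated degradation, had 280 to 338 CPM in Hypoxia WT and 80.1 to 85.1 CPM in Normoxia WT, with no overlap and a rise of 1.89 ± 0.065. The sensor EIF2AK3 rose by 1.38, XBP1, whose messenger is spliced by IRE1, by 1.22 (counts per gene do not separate the spliced form), ATF6 by 0.55 and ERN1 by 0.41. SEC24D, a coat protein of vesicles that leave the ER, rose by 1.78.

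The ER stress response element (ERSE), CCAAT followed 9 bases later by CCACG on either strand, was found in the windows of 16 of 11746 genes (0.136%), of which 10 were called higher and 4 lower. It stood in 5 of 32 (15.6%) windows of ER-list genes called higher and in 2 of 14 of the other members of those lists. The stretches are printed with the element in capitals because 5 of these genes rose while CRELD2, which carries the same letters, fell and CALR was not higher. HSPA5 is on chr9:125241376-125241424 (minus strand), XBP1 on chr22:28800588-28800636 (minus strand) and HSP90B1, with 2 matches, on chr12:103930201-103930354 (plus strand). ERO1B is on chr1:236282168-236282208 (minus strand), CANX on chr5:179698763-179698811 (plus strand), CALR on chr19:12938369-12938417 (plus strand) and CRELD2 on chr22:49918539-49918587 (plus strand).

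HSPA5: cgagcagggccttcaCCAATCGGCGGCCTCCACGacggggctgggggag

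XBP1: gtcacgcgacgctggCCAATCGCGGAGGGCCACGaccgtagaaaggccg

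HSP90B1: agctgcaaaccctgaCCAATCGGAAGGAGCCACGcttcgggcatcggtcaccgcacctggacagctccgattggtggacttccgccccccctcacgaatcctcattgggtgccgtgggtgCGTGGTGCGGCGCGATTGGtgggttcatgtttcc

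ERO1B: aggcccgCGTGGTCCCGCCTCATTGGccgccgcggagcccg

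CANX: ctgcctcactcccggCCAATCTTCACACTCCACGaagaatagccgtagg

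CALR: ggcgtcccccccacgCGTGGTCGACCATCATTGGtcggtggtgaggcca

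CRELD2: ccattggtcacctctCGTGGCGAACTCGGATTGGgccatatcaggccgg

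Downstream effectors of the integrated stress response, the shared program of eIF2 alpha kinases, rose by up to several-fold, while the messenger of their activator ATF4 was not called. ATF4, which is controlled mainly at translation, had 911 to 1204 CPM in Hypoxia WT and 977 to 1037 CPM in Normoxia WT and was not called (0.03 ± 0.062, adjusted p = 0.67). From libraries 2 and 4 alone it was called lower (-0.13), and from libraries 1 and 3 alone higher (0.22). Of 27 effectors, 19 rose, 11 of them at least 2-fold, and 4 fell, with a median of 0.64. ATF3, a transcription factor of many stresses, had 820, 759, 890 and 798 CPM in Hypoxia WT, against 94.1, 103, 87.5 and 96 CPM in Normoxia WT, without overlap, and rose by 3.10 ± 0.072. PPP1R15A (GADD34), which restores translation, rose by 2.33 ± 0.094, at 147 to 194 CPM in Hypoxia WT, against 29.7 to 36.8 CPM in Normoxia WT, and TRIB3, a pseudokinase induced under ER stress, by 1.62. DDIT3 (CHOP) was called at 2.79 (39.1 to 55.1 CPM in 1% O2 and 6.50 to 6.74 CPM in 21% O2) but overlaps MARS on the other strand, and MARS was called lower only without Hypoxia WT library 1 or 3 or both (-0.22 to -0.16). CHAC1, which degrades glutathione, fell by 0.46 and ATF5 by 0.60. Amino acid genes showed no single direction, with 11 of 25 (44.0%) called higher and 9 (36.0%) lower, beside 29.6% and 30.7% of all genes tested. Among them ASNS (asparagine synthetase) rose by 0.96. Of 20 cytosolic aminoacyl-tRNA synthetases, 12 rose and 5 fell, among them GARS (0.46) and VARS (-1.07).

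The list of immediate-early and heat shock genes was divided, with 18 of 33 called higher and 12 lower. FOS had 53.6, 48.7, 46.9 and 43.0 CPM in Hypoxia WT, against 3.00, 4.09, 1.66 and 3.08 CPM in Normoxia WT, and rose by 4.02 ± 0.161 (adjusted p = 1.69e-19). FOS was low in every library at 21% O2, with no overlap. EGR1 rose by 1.92, JUN by 1.74 and the phosphatase DUSP1 by 1.63. HSPA8, the constitutive cytosolic HSP70, fell by 1.20, HSPE1, the mitochondrial cochaperonin, by 1.34, HSPA1B by 1.07, HSPH1 by 0.81 and DNAJB1 by 0.75. HSPA1A and HSPA1B are near-identical copies, so the split of reads between them is uncertain. Of the heat shock genes, HSPB8, a small heat shock protein, rose by 2.68, at 13.3 to 17.1 CPM in Hypoxia WT, against 1.89 to 3.13 CPM in Normoxia WT.

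Respiratory chain transcripts fell from both genomes. MT-CYB, the cytochrome b gene of complex III, had 429, 363, 408 and 323 CPM in Hypoxia WT, against 2687, 2374, 2514 and 2380 CPM in Normoxia WT. No libraries overlapped and MT-CYB fell by 2.71 ± 0.088 (adjusted p = 9.65e-22), the largest fall among called protein-coding genes at 5 CPM or more whose libraries did not overlap. Of 13 protein-coding genes of the mitochondrial genome, 12 fell, 7 at least 2-fold, and MT-ND6, the one encoded on the light strand, was not called (618 to 1012 CPM in 1% O2 and 592 to 719 CPM in 21% O2). MT-ND6 was at 0.17, and 5 alternatives called it higher (0.18 to 0.37). These left out Hypoxia WT library 4 or libraries 2 and 4, used upper quartile scaling or no filter, or added the length covariate. The falls were uneven, with MT-CO3 at -2.23 and MT-ATP6 at -2.21 beside MT-CO1 at -0.45 and MT-ND5 at -0.58. The mitochondrial genome as a whole took 2.38% to 2.88% of counts in 1% O2 and 3.54% to 3.74% in 21% O2.

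Among nuclear subunits, 31 of 37 complex I genes and 37 of 38 genes of complexes II to V were called lower, with medians of -0.67 and -0.59. ATP5MC1, one of the genes for the ATP synthase c ring, had 31.1, 23.9, 35 and 24.6 CPM in Hypoxia WT, against 134, 123, 123 and 120 CPM in Normoxia WT, without overlap, and fell by 2.13 ± 0.094. COX4I1 fell by 0.56 and NDUFA4 by 0.84, while NDUFA4L2, the hypoxic counterpart of NDUFA4, was called higher (1.36, at 3.28 to 4.58 CPM in 1% O2 and 1.16 to 1.62 CPM in 21% O2) but overlaps SHMT2 on the other strand. NDUFA13 rose by 0.51. NDUFV2 and NDUFS4 were called higher at 0.68 and 0.19, but the call of NDUFV2 was lost without Normoxia WT library 2, 3 or 4 or Hypoxia WT library 1, 2 or 4 (0.52 to 0.68), with DESeq2 (0.71) and with the length covariate (0.02), and that of NDUFS4 without Normoxia WT library 1, 2 or 4 or Hypoxia WT library 1 or 3 (0.09 to 0.20) and with a replicate block (0.18). The lists have median gene lengths of 2263 and 2539 bases, against 5034 for all protein-coding genes tested, and their medians depended on the libraries. In libraries 2 and 4 they were -0.87 for complex I and -0.78 for complexes II to V, and in libraries 1 and 3, -0.56 and -0.38. Of 19 TCA cycle genes, 14 fell (median -0.33, with -0.44 in libraries 2 and 4 and -0.18 in libraries 1 and 3), among them OGDH at -1.19. Of 47 proteins of the large mitochondrial ribosomal subunit, 34 fell and 0 rose (median -0.41, with -0.60 in libraries 2 and 4 and -0.24 in libraries 1 and 3). From libraries 1 and 3 alone, 25 were called lower and 3 higher. Fewer cells of a type and less RNA per cell cannot be told apart in these bulk libraries, and neither can fewer mitochondria per cell and less transcript per mitochondrion.

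**Figure D3:**
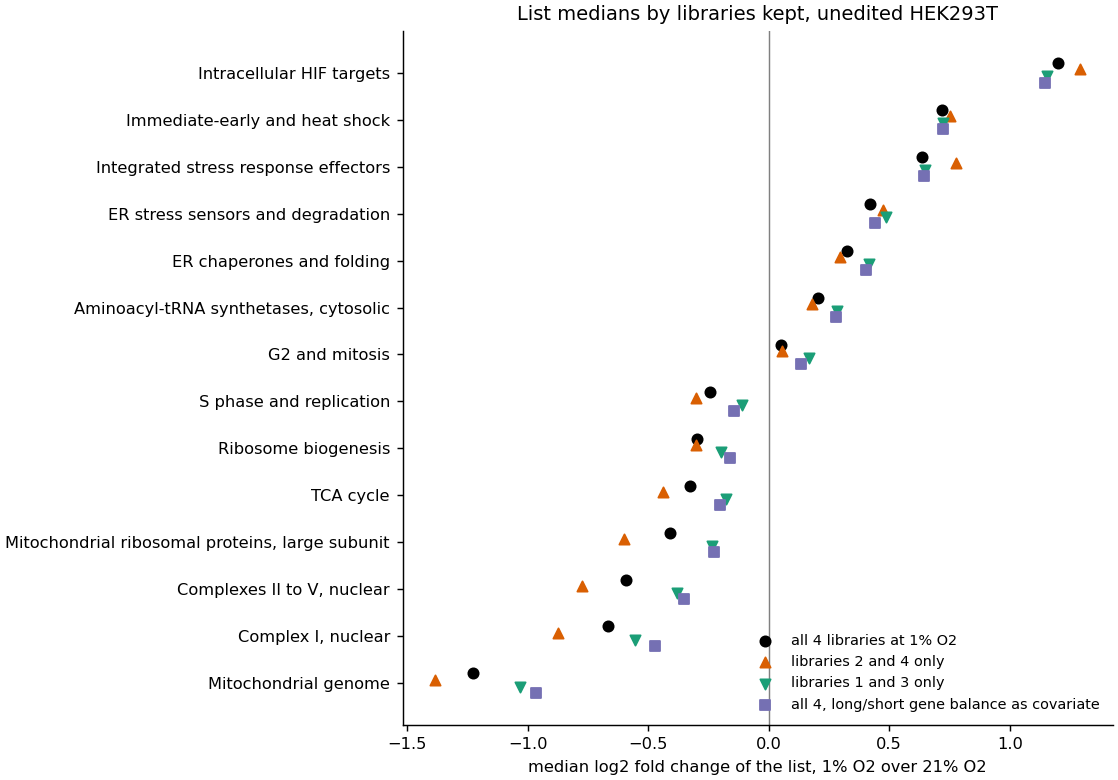
Median log2 fold change of 14 gene lists, Hypoxia WT over Normoxia WT, from all 4 libraries at 1% O2, from libraries 2 and 4 only, from libraries 1 and 3 only, and with the long/short gene balance as a covariate. The mitochondrial lists lie closer to 0 in libraries 1 and 3, and the HIF targets stay between 1.15 and 1.29.

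**Figure D4:**
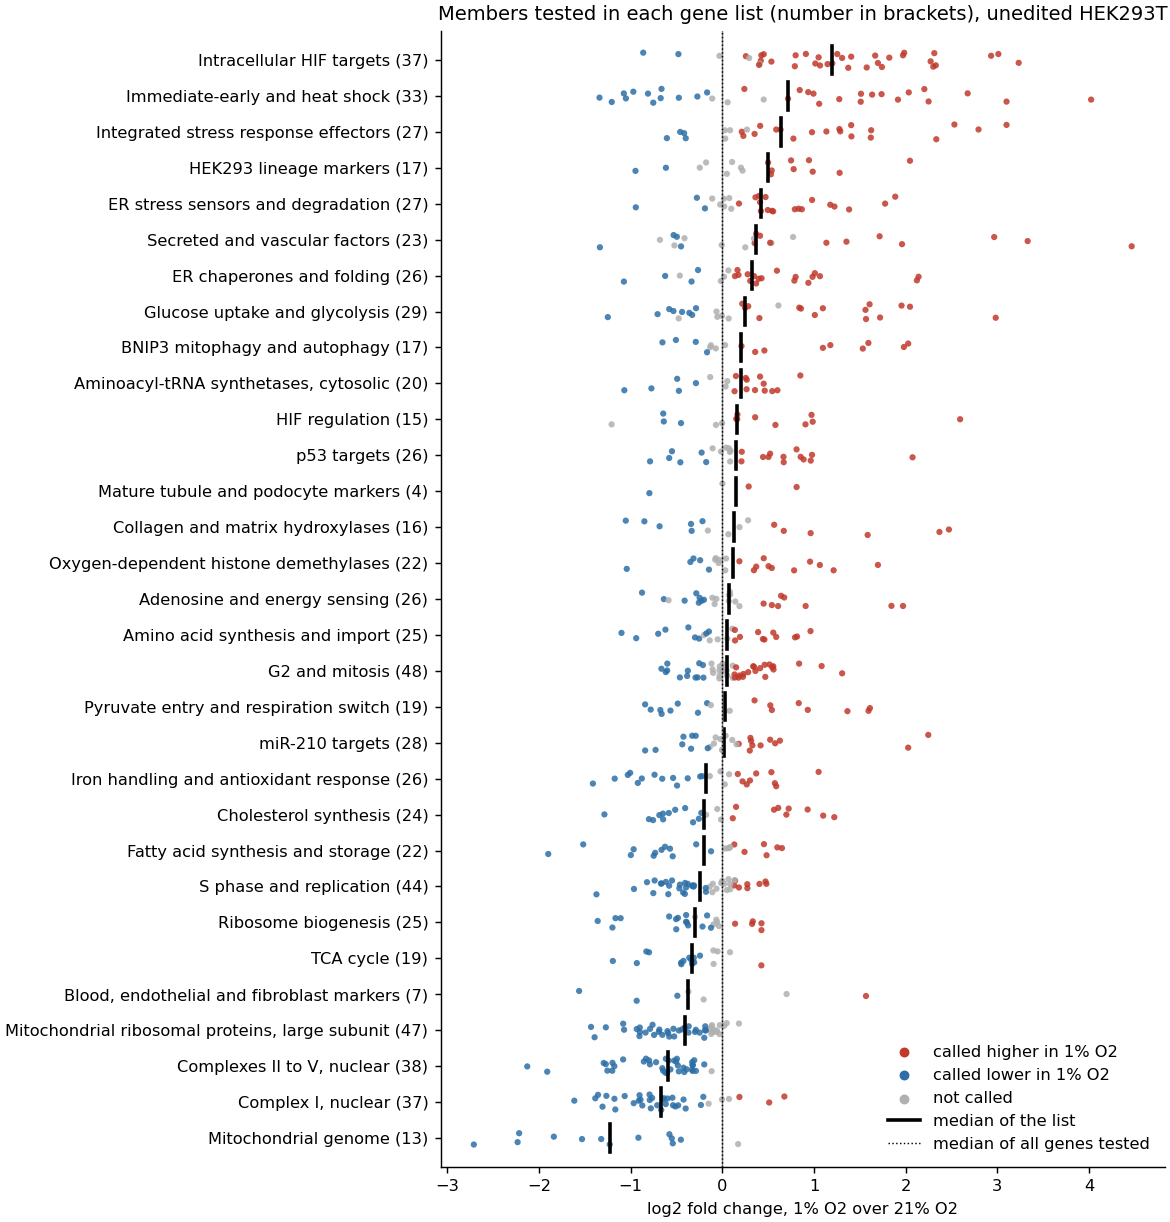
Log2 fold change of every member tested in 31 gene lists, Hypoxia WT over Normoxia WT; red points were called higher, blue lower and grey not called, and black bars are list medians. The HIF targets have the highest median (1.20) and the mitochondrial genome the lowest (-1.23).

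Growth and lipid programs were mixed, as were all genes tested, of which 29.6% were called higher and 30.7% lower. Of 25 ribosome biogenesis genes, 15 fell and 5 rose, with POLR1A, the large subunit of RNA polymerase I, at 92.6 to 109 CPM in 1% O2 and 229 to 234 CPM in 21% O2 (-1.20 ± 0.068). Of 44 S phase genes, 24 fell and 8 rose (median -0.24, with -0.30 in libraries 2 and 4 and -0.11 in libraries 1 and 3), including UHRF1 (-1.37) and cyclin E1 (CCNE1, -0.96). Of 48 genes of G2 and mitosis, 21 rose and 12 fell, with HMMR at 1.31 and CDC25B at -0.66. CDKN1A, the p21 inhibitor of the cell cycle, rose by 0.67 and GADD45A by 2.07, while BAX fell by 0.79, and 13 of 26 p53 targets rose and 6 fell. HEK293T cells carry large T antigen, which binds p53. Of 24 cholesterol synthesis genes, 9 rose and 12 fell, with IDI1, the isomerase of isopentenyl diphosphate, at 1.22. Of 22 genes of fatty acid synthesis and storage, 6 rose and 12 fell. FASN, fatty acid synthase, fell by 1.52 and DGAT2, which makes triglycerides, by 1.90.

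Several of the largest changes lay outside all the lists. DHRS2, a mitochondrial dehydrogenase/reductase, had 32.4, 33.2, 34.5 and 38.3 CPM in Hypoxia WT, against 1.99, 1.04, 1.16 and 1.96 CPM in Normoxia WT, with no overlap and a log2 fold change of 4.47 ± 0.138 (adjusted p = 2.38e-22). PCK1, the cytosolic enzyme of gluconeogenesis, rose by 3.36, at 11.1 to 16.1 CPM in Hypoxia WT, against 1.28 to 1.40 CPM in Normoxia WT, and TNFRSF9 (4-1BB), a costimulatory receptor, by 3.78. The sodium channel subunit SCN3B rose by 3.35 and the adaptor SH2D3C by 3.60. C11orf96 rose by 3.13, and BEST1 was called at 3.20 but overlaps the abundant FTH1 on the other strand. Among falls, COL2A1, a cartilage collagen, had 7.17 to 8.39 CPM in 1% O2 and 30.5 to 32.6 CPM in 21% O2 (-2.0 ± 0.086). AGRN, a basement membrane proteoglycan, fell by 1.77, the metallothionein MT2A by 1.78 and AMDHD2, of the hexosamine pathway, by 1.85. POLR2L and PRKAR1B were called at -2.19 and -2.0, and both overlap a gene on the other strand.

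Fewer long noncoding RNAs were called lower than higher. Of 3489 tested, 932 (26.7%) were called higher and 454 (13.0%) lower, beside 29.6% and 30.7% of all genes tested, with a median of 0.19. From libraries 2 and 4 alone 902 were called higher and 352 lower, and from libraries 1 and 3 alone, which had the lower share of lncRNA counts, 834 and 439. LINC01411 had 5.07, 5.71, 5.51 and 5.82 CPM in Hypoxia WT and 0.337, 0.361, 0.155 and 0.519 CPM in Normoxia WT, apart in every library, and rose by 3.99 ± 0.250. The nuclear transcripts MALAT1 and NEAT1 rose by 1.76 and 1.28. MALAT1 was at 147 and 153 CPM in Hypoxia WT libraries 1 and 3, at 191 and 185 CPM in libraries 2 and 4, and at 46.9 to 54.1 CPM in Normoxia WT. The antisense genes DARS-AS1 (2.85) and VLDLR-AS1 (2.79) overlap DARS and VLDLR, which rose too, and without a known strand setting their own change is uncertain. LINC00235 fell by 1.36.

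MIR210HG, the host transcript of the microRNA the series is about, had 19.4, 16.8, 21.0 and 19.2 CPM in Hypoxia WT, against 6.00, 6.34, 4.83 and 5.63 CPM in Normoxia WT. All libraries at 1% O2 were above all at 21% O2, and it rose by 1.74 ± 0.132 (adjusted p = 1.31e-11). The libraries hold long RNA and do not measure the mature microRNA, and reads counted on the MIR210 hairpin (30 in all Hypoxia WT libraries and 3 in all Normoxia WT libraries) were too few to test. The RefSeq sequence of the mature arm miR-210-3p (GRCh38.p14, chr11:568112-568133, minus strand) is printed because its targets are examined next, with the seed, bases 2 to 8, in capitals.

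hsa-miR-210-3p: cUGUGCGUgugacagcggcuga

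Of 28 genes described elsewhere as miR-210 targets, 11 rose, 8 fell and 9 were not called, with a median of 0.02 (0.02 in libraries 2 and 4, 0.13 in libraries 1 and 3). Their shares of 39.3% higher and 28.6% lower stand beside 29.6% and 30.7% of all genes tested. GPD1L, an enzyme linked to HIF stability, had 49.0 to 55.2 CPM in 1% O2 and 67.4 to 70.4 CPM in 21% O2 and fell by 0.44, and SDHD, a membrane anchor of complex II, fell by 0.42. ISCU, the iron-sulfur scaffold, was not called (-0.14 ± 0.060, adjusted p = 0.0511), though it was called lower without Normoxia WT library 4 or Hypoxia WT library 1 or 3 (-0.18 to -0.16), without both of these (-0.23) and with a replicate block (-0.14). It was at 0.00 without Hypoxia WT libraries 2 and 4 and at 0.01 with the length covariate, and was not called in either. BNIP3, also listed as a target, rose, and so did BDNF (2.25). No set of seed matches was searched.

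The libraries were checked against markers of the line and of other cells. All 17 genes linked to HEK293 cells passed the expression filter, which used all 24 libraries, edited lines included. STMN2 passed with 20 or fewer counts in the unedited libraries, so passing does not show expression there. Of the 17, 9 (52.9%) were called higher and 2 (11.8%) lower, beside 29.6% and 30.7% of all genes tested. Their summed level was 1241 to 1484 CPM in Hypoxia WT and 817 to 846 CPM in Normoxia WT. That sum includes ENO2, an enolase also in the HIF-related lists, which rose by 2.05, the most of the 17. PAX2, a marker of the embryonic kidney, was not called, at 4.34 to 6.45 CPM in 1% O2 and 5.62 to 6.94 CPM in 21% O2, but was called lower without Hypoxia WT library 1 (-0.36) and without libraries 1 and 3 (-0.35). Of 15 markers of blood, endothelium and fibroblasts, 7 could be tested, with sums of 36.5 to 41.1 CPM in Hypoxia WT and 48.3 to 52.4 CPM in Normoxia WT, and CD3E was at 0 in all 8 libraries. Of 12 markers of mature tubule and podocyte, 4 could be tested, with sums of 41.1 to 52.3 CPM in Hypoxia WT and 70.3 to 75.3 CPM in Normoxia WT, and UMOD was at 0 in all 8 libraries.

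The response of unedited cells was set against that of the libraries labelled MIR210-KO and 210HG-KO, with the same model and a test of the difference between responses. MIR210HG was at 0 counts in all 8 libraries labelled 210HG-KO. In the libraries labelled MIR210-KO the hairpin still received 33 reads at 1% O2 and 1 at 21% O2, so the counts do not check that label, and MIR210-KO is used here as the label gives it. Over all genes, the response was more positive in WT than in MIR210-KO for 2792 genes (14.0%) and more negative for 2495 (12.5%). Against 210HG-KO these were 2441 (12.2%) and 2045 (10.2%).

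The gap between lines was wide for several ER and stress genes. HSPA5 had log2 fold changes of 2.12 in WT, -0.69 in MIR210-KO and 0.03 in 210HG-KO, and the WT response exceeded that of MIR210-KO by 2.81 ± 0.081 and that of 210HG-KO by 2.09 ± 0.080 (adjusted p = 3.78e-22 and 2.26e-18). Of 26 ER chaperones, the WT response was more positive for 23 than in MIR210-KO and for 18 than in 210HG-KO, and more negative for 0 in both. Without Hypoxia WT libraries 1 and 3 these counts were 19 and 16, with 0 more negative, and without libraries 2 and 4 they were 23 and 21, with 1 more negative in each. PPP1R15A, TRIB3, HERPUD1 and XBP1 also had larger responses in WT than in either edited line, and TRIB3 was at 1.62 in WT, -0.57 in MIR210-KO and 0.25 in 210HG-KO. ARC, an immediate-early gene of neurons, was at 2.20 in WT, -0.72 in MIR210-KO and 0.16 in 210HG-KO, and C11orf96 at 3.13 in WT, -0.37 in MIR210-KO and 0.43 in 210HG-KO. HMOX1, heme oxygenase, rose by 1.05 in WT and was at -0.64 in MIR210-KO and -0.92 in 210HG-KO. Of 20 aminoacyl-tRNA synthetases the WT response was more positive than in MIR210-KO for 17 and than in 210HG-KO for 15, and more negative for 0 in both. CHAC1 went the other way, at -0.46 in WT, 0.25 in MIR210-KO and 1.81 in 210HG-KO.

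For some HIF targets the responses lay close together, though many members of the list differed between lines. P4HA1 responded by 2.47 in WT, 2.31 in MIR210-KO and 2.21 in 210HG-KO, BNIP3L by 1.98 in WT, 2.18 in MIR210-KO and 2.02 in 210HG-KO, and CXCR4 by 2.97 in WT, 2.73 in MIR210-KO and 2.81 in 210HG-KO. For BNIP3L and CXCR4 neither difference was called, with differences for BNIP3L of -0.20 ± 0.086 against MIR210-KO and -0.04 ± 0.084 against 210HG-KO. Over all genes tested, the WT response was more positive for 14.0% and more negative for 12.5% than in MIR210-KO, and for 12.2% and 10.2% against 210HG-KO. Of 37 HIF targets, the WT response was more positive for 12 and more negative for 4 than in MIR210-KO, and for 12 and 7 against 210HG-KO. ANKRD37, NDRG1 and HILPDA were among those with larger responses in WT than in both, and MIR210HG responded less in WT than in MIR210-KO (a difference of -0.83 ± 0.194). At 1% O2 MIR210HG levels overlapped, at 16.8 to 20.97 CPM in WT and 18.85 to 22.22 CPM in MIR210-KO. The lines were apart at 21% O2, at 4.835 to 6.342 CPM in WT and 2.1 to 4.715 CPM in MIR210-KO. Each comparison of responses uses the same 8 unedited libraries. An effect of an edit and other differences between the lines cannot be told apart.

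**Figure D5:**
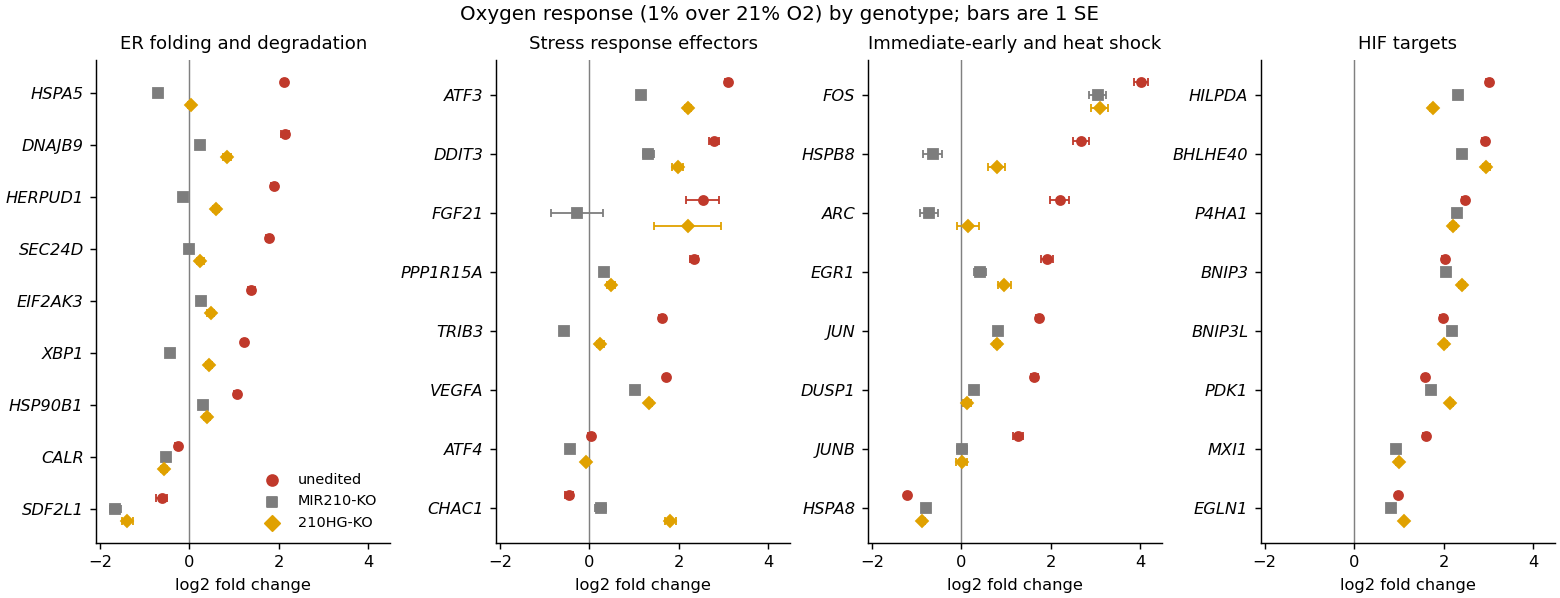
Log2 fold change of 1% over 21% O2 in unedited, MIR210-KO and 210HG-KO libraries for genes of 4 groups, with bars of 1 SE. HSPA5 stands at 2.12 in unedited cells and near or below 0 in the edited lines, while the points of P4HA1 and BNIP3L lie close together.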

How the data were processed

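RNA from HEK293T cells was extracted with TRIzol and made into libraries with the NEBNext Ultra RNA kit, per the labels' protocols. The authors deposited raw counts per gene in 1 table for each oxygen level, with gene lengths and types. Per the submitters' processing notes, reads were processed with STAR 2.6.1d and featureCounts 1.5.0-p3 on GRCh38; the strand setting and annotation release are not given in the sources used here. The tables were joined on 58735 gene identifiers, and the number of value columns not used was 0. Groups came from the sample labels.

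From these counts all 24 libraries were fitted in 1 edgeR 4.0.16 quasi-likelihood model (R 4.3.3, limma 3.58.1) with a mean per group, TMM scaling and edgeR's expression filter, which kept 19952 genes. CPM and RPKM use TMM-scaled totals. Adjusted p-values are Benjamini-Hochberg over all genes tested, two-sided, and called below 0.05. Total counts were 26330323 to 37858947 in the 8 unedited libraries. The scripts were tested on simulated data. The 31 gene lists (810 of 811 entries matched) and the part of the series described were chosen with earlier results of these data known. Named genes were the 15 protein-coding and 5 lncRNA genes with the largest called rise and fall at 5 CPM or more without overlap, the 3 largest changes of each list, the members of 15 families, and fixed genes. Other members named were chosen after their values were seen, to show how a list varied. Of 153 genes named by the rule, 106 overlap another annotated gene, 87 on the opposite strand. Alternatives were other scalings, filters, DESeq2 1.42.0, a replicate block, thresholds and left-out libraries; leaving out Hypoxia WT libraries 1 and 3 or 2 and 4, and the length covariate, were added after seeing the data. A few genes are not reported here.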

Additional observations from a re-analysis of the deposited data

Results flagged for a closer look

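In 19 of 328 sets of 4 values examined (each gene named or library measure, in each group), 1 of the 4 libraries stood far from the other 3. Chance alone gives this in about 1 in 20 sets, so the number is near what chance gives. Among Hypoxia WT libraries, library 1 stood apart for CXCL12 (0.450 CPM, others at most 0.150) and HSPA1A (0.600 CPM). Library 2 did so for DNAJB9 (48.4 CPM), PLOD3 (41.1 CPM) and SRXN1 (2.93 CPM), library 3 for HK1 (208 CPM), PDK2 (15.4 CPM) and UHRF1 (130 CPM), and library 4 for CA12 (17.1 CPM). Among Normoxia WT libraries, library 1 stood apart for ASNS (22 CPM), NQO1 (5.60 CPM), VLDLR-AS1 (1.15 CPM) and the share of ribosomal protein counts (7.76%). Library 2 did so for HSPA1B (271 CPM) and ISM2 (3.49 CPM). Library 3 was the lowest for LDHA (1188 CPM), MT-CO1 (8685 CPM), PFKFB4 (18.7 CPM) and STC1 (1.12 CPM).

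The oxygen response of unedited cells differed from that of an edited line by at least 1 on the log2 scale, in the test of the difference itself, for 40 of the genes named. Many named genes were picked for large changes in unedited cells, which by itself favours a larger response there than in an edited line. The share of all genes tested that differed by this much was not counted, so the 40 have no background. Among ER and stress genes the WT response exceeded that of MIR210-KO and 210HG-KO by 2.81 and 2.09 for HSPA5, 1.91 and 1.30 for DNAJB9, 2.03 and 1.30 for HERPUD1, 1.79 and 1.53 for SEC24D, 2.01 and 1.85 for PPP1R15A, and 2.19 and 1.37 for TRIB3. Against MIR210-KO alone the gap passed 1 for XBP1 (1.66), EIF2AK3 (1.12), SDF2L1 (1.04), ATF3 (1.94), DDIT3 (1.47) and EGR1 (1.51). CHAC1 differed from 210HG-KO by -2.27.

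Other stress and immediate-early genes with larger responses in WT than in MIR210-KO and 210HG-KO were HSPB8 (3.32 and 1.88), ARC (2.92 and 2.05), DUSP1 (1.35 and 1.5), HMOX1 (1.69 and 1.97) and GADD45A (1.65 and 1.39). So were C11orf96 (3.50 and 2.70), DHRS2 (2.42 and 1.93), SH2D3C (2.76 and 1.31), PCK1 (1.43 and 2.26), BEST1 (2.14 and 1.06), BDNF (1.39 and 1.73), LINC01411 (2.19 and 1.59) and ANKRD37 (1.29 and 1.53). INHBA (2.91), SCN3B (1.34) and HK2 (1.21) exceeded MIR210-KO only in this size class, and NDRG1 (1.35) and HILPDA (1.26) exceeded 210HG-KO.

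The WT response was more negative than in both edited lines for LINC00235 (-1.03 and -1.38) and less positive for STC1 (-1.11 and -1.64). It was more negative than in MIR210-KO for AGRN (-1.05), AMDHD2 (-1.10), DGAT2 (-1.13) and PGF (-1.02), and more negative or less positive than in 210HG-KO for COL2A1 (-1.29), DARS-AS1 (-1.01) and AMPD3 (-1.82).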

How the results depend on the processing

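The counts of 5899 genes called higher and 6123 called lower in Hypoxia WT against Normoxia WT stayed within 1.5 times under the scalings, filters, DESeq2, left-out libraries and covariate tried, from 5037 with the covariate to 7003 with upper quartile factors for higher genes and from 5147 to 6143 for lower genes. A required change of 1.5-fold left 1761 and 1654. Leaving out 1 library at a time gave 5509 to 6022 higher and 5537 to 6077 lower genes. For the response against MIR210-KO it gave 2497 to 3171 and 2136 to 2537, and against 210HG-KO 2120 to 2983 and 1671 to 2109. Without Hypoxia WT libraries 2 and 4, the response was more positive in WT than in 210HG-KO for 3664 genes, beside 2441 with all libraries. The libraries kept, 1 and 3, had length balances of -0.01 and -0.11, beside 0.26 to 0.32 in 210HG-KO at 1% O2. The cause was not tested. The upstream bases alone held ACGTG or GCGTG in 56.3% of promoters, against 62.0% of the longer windows.

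Of 159 genes named with a value, 141 kept their direction and side of the threshold apart from the 1.5-fold requirement. ATF4 was called at -0.13 without Hypoxia WT libraries 1 and 3 and at 0.26 with the length covariate. PDK3 was called at 0.33 without libraries 1 and 3 and at -0.40 with the covariate. The covariate ended the calls of CALR, CXCL12, HIF1A, MYC and NDUFV2, given above, and of CHAC1 (-0.27), ERN1 (0.14), HSPA1A (-0.82) and SDF2L1 (-0.22). NDUFS4 lost its call in 9 alternatives (0.06 to 0.21).

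Same-numbered libraries of the 2 oxygen levels did not deviate together, with correlations of 0.05, -0.02, 0.00 and 0.04, so the numbers were not taken to pair them, and a replicate block gave 5852 higher and 6143 lower genes and, of the genes named, changed the calls of ISCU and NDUFS4 only. Counts per gene cannot show splicing of XBP1 or mature microRNAs, and genes such as CA9 were too low to test at this depth.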

Other observations

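Iron and redox genes were divided in unedited cells. Of 26 tested, 9 rose and 13 fell. TFRC, the transferrin receptor, had 446 to 497 CPM in Hypoxia WT and 309 to 340 CPM in Normoxia WT and rose by 0.54. STEAP3, the endosomal ferrireductase that acts beside it, fell by 1.41, at 26.8 to 30.0 CPM in Hypoxia WT, against 72.0 to 79.4 CPM in Normoxia WT. Of genes that NRF2 is known to induce, SRXN1 fell by 1.03 and NQO1 by 0.65, while HMOX1 rose.

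Energy-sensing genes did not move one way, with 8 of 26 (30.8%) called higher and 8 (30.8%) lower, close to the 29.6% and 30.7% of all genes tested. AMPD3, which deaminates AMP, rose by 1.84 (5.85 to 8.51 CPM in Hypoxia WT, 1.65 to 2.55 in Normoxia WT), and the AMPK subunit PRKAB2 rose by 0.91. TSC2, an inhibitor upstream of mTORC1, fell by 0.87, while DDIT4, which acts through the same complex, rose.

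Lineage genes of the line changed as well. EYA1, a transcription cofactor of kidney and ear development, rose by 1.28, at 29.9 to 34.8 CPM in Hypoxia WT, against 12.0 to 14.7 CPM in Normoxia WT. The neurofilament NEFM rose by 0.95, and WT1, a zinc finger factor of the developing kidney, fell by 0.95, at 4.63 to 6.48 CPM in Hypoxia WT, against 9.95 to 11.2 CPM in Normoxia WT.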
